A study of Homo sapiens with 3 samples.

Results

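Gene expression in KYSE180 cells that received siRNAs against HOTAIR for 48 h was compared with that in control KYSE180 cells. KYSE180 is a human line of oesophageal squamous cell carcinoma. The siRNA cells received 100 pmol of a mixture of Stealth siRNAs against HOTAIR with Lipofectamine2000. The control cells are labelled only as control. The series' design names a negative-control Stealth RNAi, but no label says whether this control array received it or any transfection reagent. The third array of the series came from cells transfected with the LZRS_HOTAIR vector and Polyfect, and its values are given beside the others. Its label gives 48 h as well. A label of the siRNA array names the line as HOTAIR where its title and cell line field say KYSE180. Each group has 1 array, so no difference below has a replicate check or a test, and every value describes these RNA samples only. The members of the comparison are genes, each represented by the single-symbol probe set with the highest mean signal over the 3 arrays. Of 18132 genes so represented, 10917 had a mean log2 signal of 5.28, the median over all probe sets, or more, and these were compared.

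HOTAIR is a long non-coding RNA transcribed from the HOXC cluster between HOXC11 and HOXC12. It has been described as a scaffold that binds the Polycomb repressive complex PRC2, which methylates lysine residues of histone H3, and the LSD1 demethylase complex with its CoREST partners. High HOTAIR has been reported in oesophageal squamous carcinoma. A synthetic siRNA is loaded into an Argonaute protein, which cleaves RNA that pairs with it.

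No probe set was assigned to HOTAIR, so the knockdown could not be checked on these arrays. The neighbouring HOXC11 had log2 signals of 5.71 in control, 5.42 in siRNA and 5.01 in vector cells. HOXC12 had 3.69 in control, 3.51 in siRNA and 3.40 in vector cells. Each value lay under the lower quartile of its array (3.72 in control, 3.62 in siRNA, 3.58 in vector cells). The medians of the arrays over all probe sets were 5.27 in control, 5.25 in siRNA and 5.23 in vector cells, and their upper quartiles were 7.35, 7.48 and 7.55. Over the 10917 genes the SD of the log2 difference was 0.84 for siRNA minus control, 0.92 for vector minus control and 0.45 for siRNA minus vector. The control array therefore stood apart from both transfected arrays, and with 1 array a group the effect of the siRNAs cannot be told apart from what else set the control array apart. Squamous epithelial markers fitted the labelled cell type: 11 of 15 were measured, all 11 passed the signal filter, none differed by 2-fold, and their signals ran from 7.24 to 13.38 in control and from 6.78 to 13.01 in siRNA cells. None of 8 fibroblast markers (signals of 2.33 to 5.07 in control, 2.62 to 4.90 in siRNA cells) and none of 5 endothelial markers (3.91 to 5.51 and 3.72 to 5.19) passed the filter. Among 8 leukocyte markers TYROBP and CD68 passed, and CD68 had a log2 difference of -1.46. The pan-leukocyte gene PTPRC had 2.74, 2.59 and 2.71 in control, siRNA and vector cells. Of 5 neural markers 4 passed and of 4 hepatocyte markers 1 passed, with no difference of 2-fold. The 5 neural markers ran from 5.32 to 7.10 in control and from 4.59 to 6.54 in siRNA cells. The 4 hepatocyte markers ran from 3.66 to 6.14 and from 3.61 to 5.85.

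The promoter sequences of 6 genes are printed because these genes carry the main observations. CLK1, IFT80 and HMMR were among the genes with the largest positive differences and were also high in vector cells. BCHE and HPGD were high on the siRNA array alone, and CEL was low on the siRNA array alone. Each line gives the 250 bases before the annotated start in RefSeq (GRCh38.p14), 5′ to 3′ in the direction of the gene. Capitals mark matches on either strand to any of the motifs spelled out with the promoter comparison at the end.
CLK1, chr2:200864659-200864908, minus strand: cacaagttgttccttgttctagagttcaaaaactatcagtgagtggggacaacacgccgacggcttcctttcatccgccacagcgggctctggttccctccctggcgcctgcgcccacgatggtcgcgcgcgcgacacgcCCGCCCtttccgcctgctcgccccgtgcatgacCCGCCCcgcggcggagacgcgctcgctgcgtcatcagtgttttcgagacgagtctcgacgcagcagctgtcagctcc
IFT80, chr3:160399226-160399475, minus strand: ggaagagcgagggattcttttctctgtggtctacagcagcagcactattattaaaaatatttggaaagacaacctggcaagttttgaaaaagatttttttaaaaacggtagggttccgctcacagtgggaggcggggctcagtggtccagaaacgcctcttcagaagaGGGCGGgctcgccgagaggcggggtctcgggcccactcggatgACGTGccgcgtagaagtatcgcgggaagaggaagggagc
HMMR, chr5:163460382-163460631, plus strand: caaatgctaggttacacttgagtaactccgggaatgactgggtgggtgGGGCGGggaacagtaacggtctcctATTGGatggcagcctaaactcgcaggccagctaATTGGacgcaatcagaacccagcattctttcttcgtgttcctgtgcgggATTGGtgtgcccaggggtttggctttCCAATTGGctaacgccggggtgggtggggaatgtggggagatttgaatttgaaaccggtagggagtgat
BCHE, chr3:165837424-165837673, minus strand: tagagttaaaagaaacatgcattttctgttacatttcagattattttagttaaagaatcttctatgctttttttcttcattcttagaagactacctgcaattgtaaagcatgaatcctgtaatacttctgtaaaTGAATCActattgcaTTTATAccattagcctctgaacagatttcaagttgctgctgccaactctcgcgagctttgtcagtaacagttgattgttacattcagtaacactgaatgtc
HPGD, chr4:174522489-174522738, minus strand: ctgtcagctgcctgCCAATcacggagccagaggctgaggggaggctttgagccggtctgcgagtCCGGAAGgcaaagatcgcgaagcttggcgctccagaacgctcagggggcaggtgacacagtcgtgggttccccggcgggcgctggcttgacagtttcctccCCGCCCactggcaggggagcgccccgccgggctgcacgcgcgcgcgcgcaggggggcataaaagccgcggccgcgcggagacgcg
CEL, chr9:133061731-133061980, plus strand: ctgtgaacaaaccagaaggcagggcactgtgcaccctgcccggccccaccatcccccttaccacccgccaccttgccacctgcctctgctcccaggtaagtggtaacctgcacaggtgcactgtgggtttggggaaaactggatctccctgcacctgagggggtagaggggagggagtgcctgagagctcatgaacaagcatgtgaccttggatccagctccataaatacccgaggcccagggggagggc
CLK1 holds 2 GC boxes in these bases, IFT80 1 GC box and 1 ACGTG, and HMMR 5 CCAAT matches and 1 GC box. BCHE holds 1 TATA box and 1 AP-1 motif in a stretch of 33.2% GC. HPGD, at 70.8% GC, holds 1 CCAAT box, 1 ETS motif and 1 GC box, and CEL holds no match in these 250 bases. A match is a description of letters and says nothing of binding.

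At 2-fold or more, 1623 of 10917 genes (14.9%) were higher and 202 (1.85%) were lower, so that 88.9% of the 1825 differences of this size were upward. The balance depended on the threshold: at 1.5-fold 2492 genes were higher and 1964 lower, of which 55.9% were upward. The upward tail was also longer: 411 genes were at least 4-fold higher and 51 at least 8-fold higher, against 1 gene, CEL, at least 4-fold lower. The bulk of the genes lay the other way. The median difference over all 10917 genes was -0.17 (quartiles -0.49 and 0.49), and 41.2% of genes lay above 0. After cyclic loess, which moved this median to 0.03, the split was 1990 higher and 66 lower (96.8% upward). After centring on the median it was 1955 and 72 (96.4%), and after a repeated quantile normalization 1472 and 408 (78.3%). The size of the lower group thus depended strongly on the scaling, while upward differences were the majority under each of the 4 scalings. Genes nearest the threshold had differences of 1.003 and -1.0004 just inside and 0.9997 and -0.9987 just outside. In 17 of the higher genes the control signal was under the lower quartile of the control array, where the difference may be understated.

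**Figure D1:**
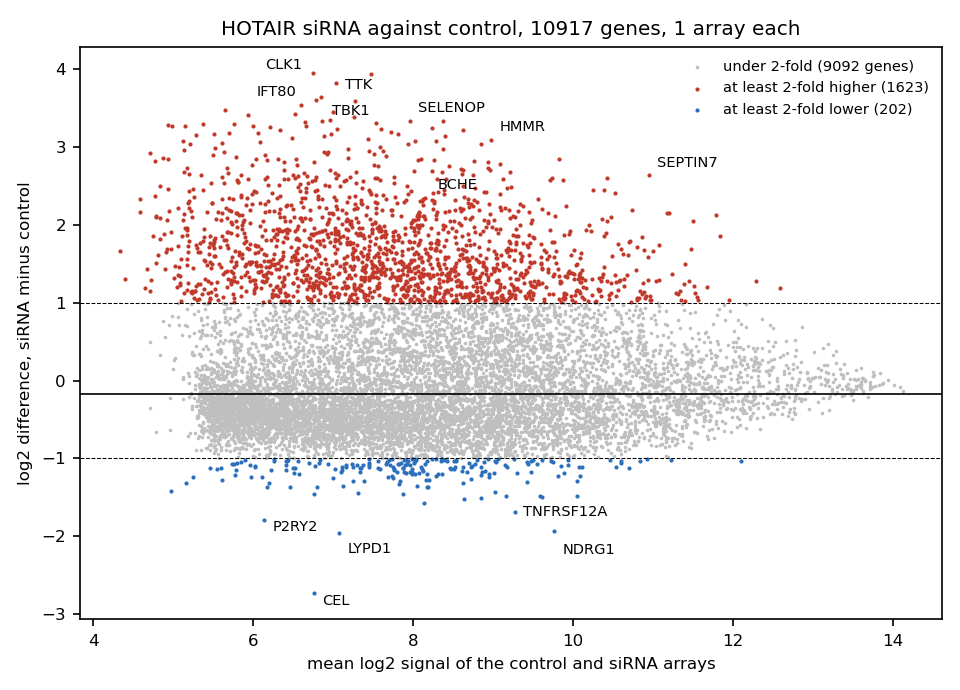
Log2 difference (siRNA minus control, y axis) against the mean log2 signal of both arrays (x axis) for 10917 genes, 1 point per gene, with dashed lines at 2-fold and a solid line at the median of -0.17. The 1623 genes at least 2-fold higher spread up to CLK1 at 3.95, while the 202 lower genes lie close to the 2-fold line except CEL at -2.73.

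The upward differences were not confined to dim genes. In 5 equal bins of mean signal, from dimmest to brightest, 11.3, 15.8, 19.8, 17.9 and 9.52% of genes were at least 2-fold higher, and 1.28, 1.47, 3.39, 2.24 and 0.870% were at least 2-fold lower. The middle bin held the largest share in both directions.

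Different probe sets for the same gene often disagreed in size. Among higher genes with 2 or more probe sets, all probe sets were at least 2-fold higher in 411 of 1417 (29.0%; 4.94% of all 8320 genes with several probe sets) and all had the same sign in 988 (69.7%). Among lower genes all were at least 2-fold lower in 19 of 124 (15.3%; 0.228% of the 8320), and 111 (89.5%) had the same sign throughout. The SD between probe sets of a gene was 0.446 over the 8320 genes. With probe sets above the signal filter only, all were past 2-fold in 571 of 1037 higher genes (55.1%) and in 23 of 93 lower genes (24.7%). This restriction left 5982 genes with several probe sets. The filter takes the mean signal over all arrays, the siRNA array included, so a probe set that is itself raised passes more easily. The rise from 29.0% to 55.1% in higher genes is therefore partly built in and does not measure better agreement. Probe sets share the RNA and the array and are not replicates. Probe sets of a gene can read different transcripts. Where another choice of probe sets or scaling ended a 2-fold difference, turned it or changed it by over 1.5 times, a value under such a choice is given below beside the gene. The mean or median over probe sets was taken on each array before subtracting.

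**Figure D2:**
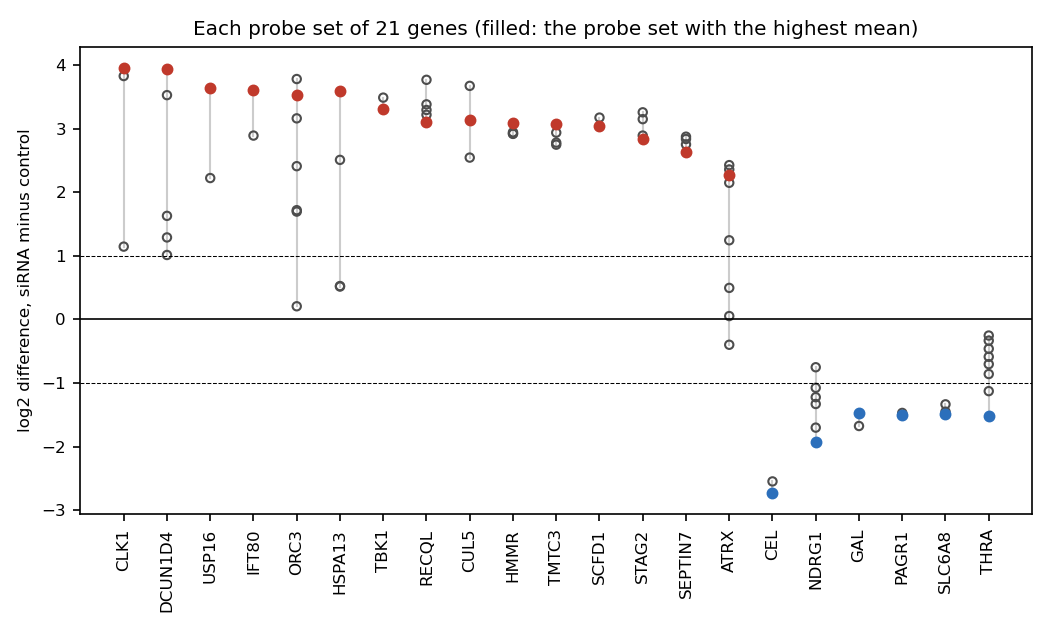
Log2 difference (siRNA minus control, y axis) of each single-symbol probe set for 21 named genes (x axis). Filled points are the probe sets that represent the gene, open points the others, and dashed lines mark 2-fold. The 4 probe sets of HMMR lie between 2.92 and 3.09, while those of DCUN1D4 run from 1.01 to 3.94 and those of ORC3 from 0.21 to 3.78.

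The largest positive differences included a splicing kinase, a mitotic kinase, a deubiquitinase and a ciliary transport protein. CLK1, a kinase that phosphorylates SR splicing factors, had log2 signals of 4.77 in control, 8.72 in siRNA and 8.85 in vector cells. Its difference from control was 3.95, and its 3 probe sets gave 1.14, 3.83 and 3.95. Taking the median of the probe sets on each array before subtracting gave 2.52. TTK, the spindle checkpoint kinase also called MPS1, had 5.12 in control, 8.94 in siRNA and 9.70 in vector cells, a difference of 3.82 from 1 probe set. USP16, which removes ubiquitin from histone H2A, had 5.03 in control, 8.67 in siRNA and 9.37 in vector cells, with its 2 probe sets at 2.22 and 3.64. Control was the low array for all 3 of these genes, and both transfected arrays were high. Their control signals were under the filter level of 5.28, so all 3 passed the filter only through the transfected arrays. IFT80, a subunit of the IFT-B complex that carries cargo into cilia, had 4.99 in control, 8.59 in siRNA and 8.49 in vector cells (difference 3.60). It too was under the filter level in control. DCUN1D4, which promotes the attachment of NEDD8 to cullins, had 5.51 in control, 9.45 in siRNA and 9.34 in vector cells. Its difference of 3.94 was 2.28 as a mean over its 5 probe sets, and 1.29 once those that can cross-hybridize were left out. TBK1, a kinase that activates the interferon response, had 5.88 in control, 9.19 in siRNA and 9.31 in vector cells, and both of its probe sets exceeded 3.3. SELENOP, the secreted selenium carrier selenoprotein P, had 6.29 in control, 9.62 in siRNA and 8.18 in vector cells, so it was high in both transfected samples and highest in siRNA cells.

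Some genes lay far above control in every probe set. RECQL, a DNA helicase, had 5.88 in control, 8.98 in siRNA and 8.94 in vector cells, and its 5 probe sets lay between 3.10 and 3.77. SEPTIN7, a cytoskeletal GTPase, had 9.63 in control, 12.27 in siRNA and 12.06 in vector cells. SCFD1, which acts in transport from the endoplasmic reticulum to the Golgi, had 7.33 in control, 10.36 in siRNA and 10.25 in vector cells, and CSE1L, the export receptor of importin alpha, had 8.58 in control, 11.16 in siRNA and 11.47 in vector cells. In each of these the control array was the low one, and siRNA and vector cells lay within 1 log2 unit of each other. By contrast, CASP1, the protease that matures interleukin-1 beta, had 5.20 in control, 8.53 in siRNA and 8.10 in vector cells but probe sets from -0.12 to 3.72.

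Group counts under the main settings are to be read against the 14.9% of all genes that were higher and the 1.85% that were lower. A group count under another choice belongs beside the total for that choice. For some groups the median of vector minus control is given as well, and over all genes it was -0.18. Of 10917 genes, 1137 were higher when probe sets were averaged, 1218 when their median was taken and 1990 after cyclic loess. Leaving out cross-hybridizing probe sets gave 1301 of 9245, and the filter at the 75th percentile 1016 of 6451. Quantile normalization gave 1472 higher and 408 lower of 10918. With so few lower genes in all, a group with none lower does not stand out. After quantile normalization several such groups held lower genes, at most 3 (the RNA helicases).

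Many genes of proteins that shape chromosomes were higher. Of the genes of cohesin, condensin and the SMC5 and SMC6 complex, 14 of 25 were at least 2-fold higher and none lower, beside 14.9% of all genes. The median of the group was 1.46, against -0.17 over all genes, and 0.87 without cross-hybridizing probe sets. For vector minus control the group's median was 1.41. STAG2, a cohesin subunit, had 6.85 in control, 9.68 in siRNA and 10.11 in vector cells, a difference of 2.83. ATPase subunits past 2-fold included SMC6 (2.37), SMC2 (2.16), SMC3 (1.79) and SMC4 (1.62), given here and below as log2 differences from control. SMC5, another ATPase subunit, was 1.42 but 0.87 with the median over probe sets. STAG1 (2.0), the condensin subunit NCAPG (1.98) and the cohesin loader NIPBL (1.46) were higher as well. The cohesin acetyltransferase ESCO2 was 3.04, but 1.88 as a mean over its probe sets. Not all members were high: the condensin subunits NCAPD2, NCAPH and NCAPH2 had differences of -0.48, -0.51 and -0.89.

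DNA damage genes gave 15 of 30 higher, beside 14.9% of all genes, and none lower, with a median of 1.16. With the median over probe sets the group's median was 0.65. For vector minus control it was 1.31 under the main settings. NBN, which with RAD50 and MRE11 forms the complex that senses double-strand breaks, had 7.57 in control, 10.30 in siRNA and 10.64 in vector cells. Its difference was 2.73, and RAD50 was 1.81. MRE11 was 1.77 but 0.93 as a mean over its probe sets. The checkpoint kinase ATR was 1.8, the clamp loader RAD17 1.90, the helicases BLM and WRN 1.75 and 1.65, and the non-homologous end-joining ligase LIG4 1.43. ATM stood at 2.54 with its brightest probe set but 0.98 as a mean over probe sets, and BRCA1 at 1.45 but 0.96. ATRIP, the partner of ATR, went the other way without reaching 2-fold (-0.93).

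Mitotic genes were divided. Of spindle checkpoint and kinetochore genes 11 of 32 were higher and none lower, with a median of 0.44, or 0.22 with the median over probe sets. NUF2 and NDC80, both subunits of the NDC80 complex that binds microtubules, were 3.0 and 2.20. ZWILCH, a subunit of the complex that brings dynein to kinetochores, was 2.70, and the centromere proteins CENPC and CENPK were 2.46 and 2.29. CENPO, another centromere protein, was -0.98. Among mitotic kinases, cyclins and related genes 4 of 19 were higher and 1 lower, and the median was -0.39. HMMR, a spindle-binding hyaluronan receptor, had 7.44 in control, 10.52 in siRNA and 11.27 in vector cells, and all 4 of its probe sets were within 0.2 of each other. CDK1, the kinase that drives entry into mitosis, was 2.84 (1.72 as a mean over probe sets) and the topoisomerase TOP2A 1.26. CDC20, the activator of the anaphase-promoting complex, was -1.0 and dropped below 2-fold under every other scaling. FOXM1, a transcription factor for mitotic genes, was -0.88. Values above and below control thus stood side by side in the mitotic genes.

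Motor and centrosome genes also held many higher members. Of kinesin genes 8 of 22 were higher and none lower, among them the mitotic motors KIF11 (1.77) and KIF15 (1.91) and the transport motor KIF5B (1.85). Of centrosome genes 15 of 29 were higher and none lower, with a median of 1.08. With the mean over probe sets these were 9 of 29 and 0.59. For vector minus control the median of the centrosome genes was 1.24 under the main settings. CEP350 had 7.09 in control, 9.05 in siRNA and 9.32 in vector cells, and CEP152, needed for centriole duplication, had 5.35 in control, 7.30 in siRNA and 7.70 in vector cells. Other centrosome genes differed between their probe sets: CEP44 was 2.98 but 1.06 as a mean over its probe sets, and CEP290 1.30 but 0.16. Intraflagellar transport gave 8 of 18 higher and none lower, led by IFT80 and by TTC21B (2.35), and the dynein heavy chain DYNC2H1 was 1.56. IFT81 (1.96) turned to -0.32 with the median over probe sets. The group gave 5 of 18 with the mean over probe sets, and its median of 0.25 turned to -0.14 with the median over probe sets and to -0.20 without cross-hybridizing ones. With genes above the 75th percentile of signal only, 2 of 8 were higher and the median was -0.27. Tubulins gave 2 higher and 1 lower of 11, and the lower one, TUBA4A (-1.04), fell under 2-fold under each other scaling.

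Several enzymes that attach or remove ubiquitin were higher. Of ubiquitin-specific proteases 14 of 34 were at least 2-fold higher and none lower (median 0.67, or 0.43 with the median over probe sets). USP1, which acts on FANCD2 and PCNA, had 9.16 in control, 11.61 in siRNA and 11.75 in vector cells, and USP33, USP47, USP53 and USP34 were 2.28, 1.96, 1.85 and 1.64. Among cullin-RING ligase scaffolds and the neddylation genes that activate them 9 of 27 were higher and none lower. The scaffold CUL5 had 6.84 in control, 9.97 in siRNA and 10.03 in vector cells (difference 3.14), and the signalosome subunit COPS2 had 6.68 in control, 9.52 in siRNA and 9.88 in vector cells (difference 2.85). UBA3 and NAE1, which together form the NEDD8-activating enzyme, were 1.70 and 1.28. Of 27 proteasome subunits 2 were higher, 1 lower, and the median was -0.20, near that of all genes. The higher ones were PSMC6 (2.40, and 1.45 as a mean over probe sets) and PSMA3 (1.06), and the lower one was PSMD3 (-1.11, and -0.99 after cyclic loess).

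**Figure D3:**
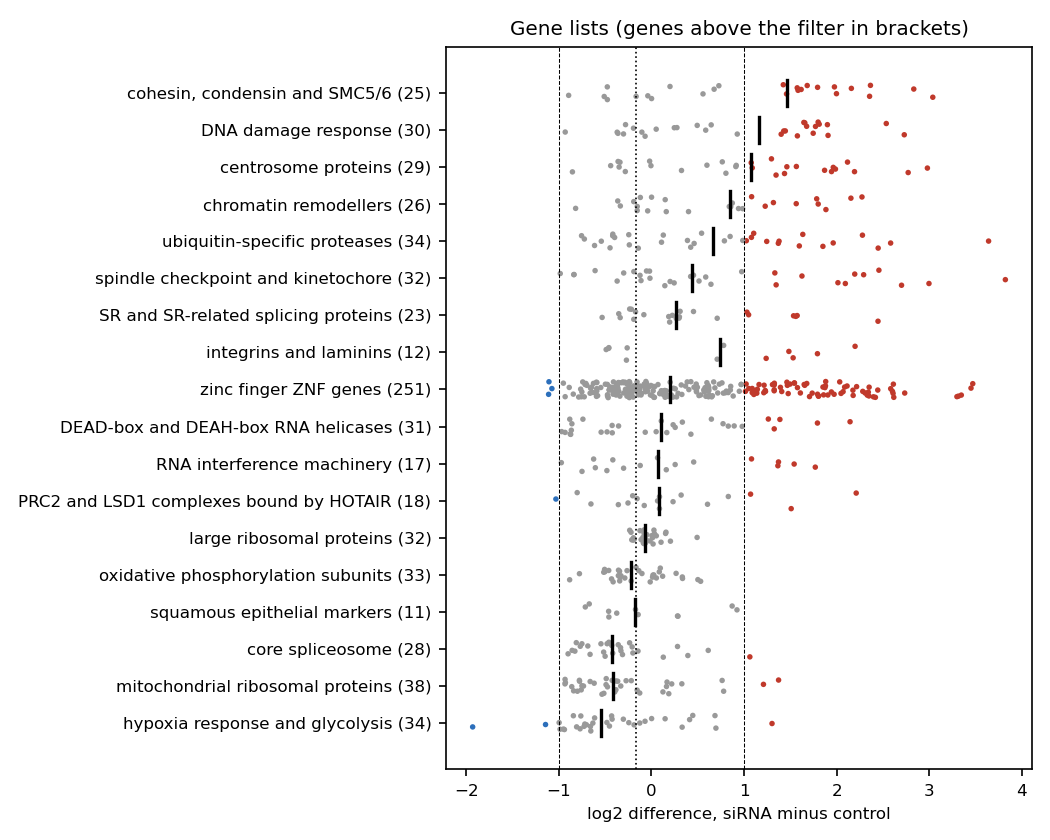
Log2 difference (siRNA minus control, x axis) of the genes kept in the gene groups drawn (y axis), 1 point per gene, with a thick bar at the median of each group, a dotted line at the median of all genes and dashed lines at 2-fold. Cohesin, condensin and SMC genes have a median of 1.46 with 14 of 25 past 2-fold, while large ribosomal proteins stay between -0.23 and 0.49.

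RNA-processing genes were uneven. Of 10 splicing kinases CLK1 alone passed 2-fold (3 did after cyclic loess), and the related CLK3 and CLK4 had -0.70 and -0.99. SR and SR-related proteins gave 6 of 23 higher and none lower. LUC7L3 had 9.02 in control, 11.47 in siRNA and 11.15 in vector cells, and PNISR, SREK1 and SCAF11 were 1.57, 1.56 and 1.54. SRSF4 and SRSF6, classical SR proteins, had -0.34 and -0.53. Of hnRNP genes 2 of 18 were higher, PTBP2 (3.29, but 0.46 without cross-hybridizing probe sets) and HNRNPA3 (1.12, but 0.98 after quantile normalization). The core spliceosome had 1 of 28 higher, SF3B1 (1.06, but 0.97 as a mean over probe sets), and a median of -0.42. Of tRNA and rRNA modification and polymerase genes 7 of 27 were higher, with the snoRNP protein NOP58 at 2.24 and the small-subunit processome genes WDR75 and UTP15 at 1.94 and 1.6.

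In genes of RNA export and turnover the share of higher genes was closer to the 14.9% of all genes. Nuclear pore genes were higher in 5 of 24 (3 with the mean over probe sets), with NUP35 at 2.16 and NUP107 at 1.88. Of the export genes 2 of 12 were higher, both subunits of the THO complex (THOC1 1.95, THOC2 1.81), while the THO subunits THOC5 and THOC6 had -0.86 and -0.88. RNA helicases gave 5 of 31, led by the translation helicase DHX29 (2.15). Decay genes gave 6 of 31 higher and 1 lower. UPF2 and SMG1, both of nonsense-mediated decay, were 1.59 and 1.54. The decapping enzyme DCP2 (2.19) turned to -0.31 with the median over probe sets, and the lower gene, the exosome subunit EXOSC5 (-1.04), was -0.87 after cyclic loess. Among 8 long non-coding RNAs kept, MALAT1, a nuclear-speckle RNA, had 5.36 in control, 8.17 in siRNA and 8.29 in vector cells, NORAD had 8.65 in control, 10.26 in siRNA and 10.12 in vector cells, and UCA1 was lower.

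Of 18 members of the PRC2 and LSD1 complexes, the described partners of HOTAIR, 3 were higher and 1 lower, near the 14.9% and 1.85% of all genes. SUZ12, a core subunit of PRC2, had 8.05 in control, 10.26 in siRNA and 10.55 in vector cells, a difference of 2.21. MTF2, which recruits PRC2 to CpG islands, was 1.51, and the accessory subunit AEBP2 was 1.07 (0.94 after quantile normalization). RCOR2, a CoREST protein, was -1.03 and -0.77 after cyclic loess. EZH2, the methyltransferase of PRC2, had 8.34 in control, 8.40 in siRNA and 8.41 in vector cells, and EED had 9.52 in control, 10.12 in siRNA and 10.19 in vector cells. KDM1A, which encodes LSD1, had 10.60 in control, 10.24 in siRNA and 10.45 in vector cells, and RCOR1 had 8.75 in control, 9.07 in siRNA and 9.03 in vector cells. The core of PRC2 was therefore split, with SUZ12 past 2-fold and EZH2 not.

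Other chromatin genes gave 9 of 26 higher among remodellers and 3 of 26 among histone demethylases and methyltransferases, with none lower in either group. The median of the remodellers was 0.85, and 0.28 without cross-hybridizing probe sets. CHD1, BAZ1A, SMARCA1 and BPTF were 1.89, 1.8, 1.79 and 1.32. ATRX (2.27) had probe sets in both directions and was -0.40 without cross-hybridizing probe sets. The H3K9 methyltransferase SUV39H2 was 1.5 while its paralogue SUV39H1 was -0.82. No HOX gene of 17 kept reached 2-fold (range -0.65 to 0.81), nor did any of 5 kept genes that the literature lists as repressed by HOTAIR. Of these listed genes 11 were measured, and those not kept lay below the signal filter. Summed over the 11, the log2 signals were 65.28 in control and 71.71 in siRNA cells. In control cells 3 of the 11 were under the lower quartile of the array, and in siRNA cells 1. The 5 kept genes therefore do not stand for the whole list. Within that last group the epithelial cadherin CDH1 had 11.58 in control, 11.87 in siRNA and 11.70 in vector cells, a difference of 0.29.

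WIF1, a secreted inhibitor of Wnt ligands that has been described as silenced through HOTAIR, was read by 1 probe set and lay below the signal filter. Its log2 signals were 3.14 in control, 5.71 in siRNA and 2.73 in vector cells. The siRNA array was thus the high one, and the vector array the lowest. The control signal was under the lower quartile of its array, so no fold is given. Of 28 Wnt ligands, receptors and inhibitors kept, 4 were higher and none lower, near the share of all genes, and 2 were higher with the mean over probe sets. The receptor FZD6 had 8.40 in control, 10.73 in siRNA and 10.66 in vector cells. LRP6 was 1.81 but 0.47 as a mean over probe sets.

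Zinc finger genes of the ZNF series formed the largest group. Among those kept, numbering 251, 74 exceeded control by 2-fold or more and 3 lay as far below it (median 0.20). Many such proteins carry a KRAB domain that recruits co-repressors, and many share sequence, so that probe sets of near relatives can share signal. ZNF700 had 3.92 in control, 7.39 in siRNA and 7.25 in vector cells and ZNF184 4.99 in control, 8.31 in siRNA and 7.78 in vector cells. ZNF146, a short protein of zinc fingers alone, had 8.44 in control, 11.04 in siRNA and 10.94 in vector cells. The lower genes were ZNF688 (-1.07), ZNF593 (-1.11) and ZNF511 (-1.11), and each fell under 2-fold after centring on the median.

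Genes that handle small RNA and sense foreign RNA were examined because the cells had received duplex RNA. Of 17 genes of the RNA interference machinery 5 were higher and none lower, beside 14.9% and 1.85% of all genes. With the mean over probe sets 2 of 17 were higher and the group's median turned from 0.07 to -0.24, and after quantile normalization 1 was lower. TSNAX, a subunit of the C3PO nuclease, had 7.65 in control, 9.43 in siRNA and 9.48 in vector cells. DICER1 was 1.54 but 0.30 without cross-hybridizing probe sets. AGO2, the Argonaute that cleaves siRNA targets, had 7.34 in control, 6.59 in siRNA and 6.69 in vector cells, and TARBP2, a partner of Dicer, had 8.54 in control, 7.57 in siRNA and 7.81 in vector cells. Both were lower in siRNA cells by less than 2-fold. Of 22 sensor and signalling genes measured 13 were kept, and 4 of these were higher. The median of the 13 was -0.34, against -0.17 over all genes, and 6 lay above 0. With the filter at the 75th percentile the group's median was 0.43 over 10 genes. Beside TBK1, RIGI, a sensor of RNA ends, had 5.39 in control, 7.20 in siRNA and 10.05 in vector cells. IFIH1, which senses long duplex RNA, was 1.25 but 0.66 as a mean over probe sets, and the DNA-binding sensor IFI16 was 1.05 but 0.92 after quantile normalization. The adaptor MYD88 and the factor IRF3 had -0.79 and -0.57. RIGI was thus lowest in control and highest in vector cells.

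Most housekeeping groups stayed near control, but chaperones held many higher genes. None of 32 large ribosomal protein genes and none of 33 oxidative phosphorylation genes differed by 2-fold, with medians of -0.07 and -0.22. Mitochondrial ribosomal proteins had a median of -0.41 with 2 of 38 higher (MRPL50 1.37, MRPL1 1.21), and aminoacyl-tRNA synthetases -0.37 with 2 of 23 higher (NARS1 1.12, but 0.96 as a mean over probe sets, RARS1 1.08). Among chaperones 11 of 30 were higher and none lower, with a median of 0.38. With the median over probe sets 8 were higher and 1 lower, and the group's median was 0.10. The inducible cytosolic HSP90AA1 had 10.12 in control, 12.28 in siRNA and 12.44 in vector cells, and DNAJB4 had 7.58 in control, 9.81 in siRNA and 9.99 in vector cells. HSPA13 (3.59) was 1.78 as a mean over its 4 probe sets. The unfolded protein and integrated stress response gave 1 higher and 1 lower of 26. These were the 2 amino acid transporters SLC7A11 (2.08, but 0.98 with the median over probe sets) and SLC7A5 (-1.18), and HSPA5, the central chaperone of the endoplasmic reticulum, had 12.56 in control, 12.77 in siRNA and 12.67 in vector cells.

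Lipid genes differed in small sets. Of sterol genes 5 of 22 were higher and none lower, though the group's median was -0.28, or -0.06 after cyclic loess. HMGCS1, which makes HMG-CoA, had 8.96 in control, 10.83 in siRNA and 10.43 in vector cells. SC5D, a late enzyme of cholesterol synthesis, had 8.17 in control, 10.25 in siRNA and 10.21 in vector cells, and IDI1 and MSMO1 were 1.39 and 1.33. SREBF1, which encodes a regulator of these genes, had 8.65 in control, 7.92 in siRNA and 8.39 in vector cells. Fatty acid and lipase genes gave 3 higher, with the elongase ELOVL6 at 2.02, and 1 lower, CEL, and 1 higher gene with the mean over probe sets. Transport and secretion genes gave 6 of 27 higher for coat and tethering proteins, 4 of 9 for the exocyst (EXOC5 2.24) and 3 of 29 for lysosome and endosome genes, with none lower. With probe sets averaged, 2 of 27 coat and tethering genes were higher. Without cross-hybridizing probe sets that group held 1 lower gene and a median of -0.13 in place of 0.35.

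At the cell surface, integrins and laminins gave 5 of 12 higher and none lower (median 0.75), and 3 of 12 higher with the mean over probe sets. Their median for vector minus control was 0.02. ITGB1, the common beta chain, had 10.77 in control, 12.01 in siRNA and 11.61 in vector cells, and ITGA2, a collagen-binding chain, had 7.57 in control, 9.06 in siRNA and 8.30 in vector cells. ITGAV (2.20) was 0.21 without cross-hybridizing probe sets. Desmosome and adherens junction genes gave DSG2 higher (1.29) and PKP3 lower (-1.23) of 16. Tight junction genes gave 3 of 12 higher (1 with the median over probe sets), with PARD6B at 2.18 (1.08 as a mean over probe sets), while CLDN7 and CLDN4 had -0.93 and -0.79. No keratin of 10 kept differed by 2-fold. Of 17 cornified envelope and S100 genes ANXA1 and SCEL were higher. ANXA1, a phospholipid-binding protein abundant in squamous epithelium, had 9.13 in control, 11.73 in siRNA and 12.36 in vector cells, and SCEL, sciellin, had 4.09 in control, 6.31 in siRNA and 8.67 in vector cells. Of 21 squamous transcription factors 1 passed, EHF (1.42, but 0.58 as a mean over probe sets), and the grainyhead factor GRHL3 was -0.61.

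Among signalling groups, TGF-beta receptors and SMADs gave 5 of 20 higher (3 with the mean over probe sets), with SMAD5, a mediator of BMP signals, at 6.50 in control, 9.03 in siRNA and 9.04 in vector cells. TGFBR1 (2.0) turned to -0.40 with the median over probe sets. NF-kB and TNF superfamily genes gave 3 higher and 1 lower of 19, near the share of all genes: the ubiquitin ligase BIRC2 (2.17), the subunit REL (1.73) and the death receptor FAS (1.55) against TNFRSF12A. Of p53 target genes 4 of 20 were higher, FAS among them. This count was 2 with the mean over probe sets and 8 after cyclic loess. By level, CDKN1A had 9.48 in control, 8.76 in siRNA and 8.70 in vector cells and GDF15 was -0.77. Immediate-early and MAPK feedback genes gave 1 higher (SPRED1 1.11, and 0.96 after quantile normalization) and 1 lower (IER3 -1.02, and -0.93 after cyclic loess) of 29. No EGF receptor or ligand of 9 differed by 2-fold. Of 15 YAP and TEAD genes YAP1 (1.32) and TEAD1 (1.31) were higher, but 0.72 and 0.36 as means over probe sets. Origin recognition and MCM genes gave 3 of 21 higher, led by ORC3 (3.54) and ORC4 (2.08), and CDT1 and MCM5 had -0.71 and -0.65.

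The largest negative difference was in CEL, the bile salt-dependent lipase. Its log2 signals were 8.13 in control, 5.40 in siRNA and 7.96 in vector cells. The siRNA array was low and the other arrays lay within 0.2 of each other. The difference was -2.73 with one probe set and -2.55 with the other, and both probe sets can cross-hybridize, so signal from the closely related CELP pseudogene cannot be told apart. NDRG1, a gene induced by hypoxia and differentiation, had 10.73 in control, 8.80 in siRNA and 9.19 in vector cells. All 6 of its probe sets were lower, from -1.93 to -0.75, and the median of its probe sets on each array gave -0.99. P2RY2, a receptor for extracellular ATP and UTP, had 7.03 in control, 5.25 in siRNA and 5.65 in vector cells, and TNFRSF12A, the receptor for the cytokine TWEAK, had 10.12 in control, 8.43 in siRNA and 8.60 in vector cells. These 3 genes were low in both transfected samples. GAL, which encodes the neuropeptide galanin, had 10.79 in control, 9.31 in siRNA and 10.25 in vector cells, and the creatine transporter SLC6A8 had 9.91 in control, 8.43 in siRNA and 9.32 in vector cells. For both genes the vector array lay between the others. SELENOW, a small selenoprotein, was -1.57, the ribosome biogenesis factor BOP1 -1.43, and the lysosomal glycoprotein CD68 -1.46. LYPD1 and PAGR1 were -1.96 and -1.51. THRA, a thyroid hormone receptor, was -1.52 but -0.73 as a mean over its 8 probe sets.

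Hypoxia and glycolysis genes had a median of -0.55, with 2 lower, 1 higher and 34 kept, beside 1.85% of all genes lower. Their median for vector minus control was -0.11. After quantile normalization 6 of the 34 were lower. Beside NDRG1, PFKFB4, which sets fructose 2,6-bisphosphate levels, was -1.14 but -0.55 as a mean over probe sets. BNIP3L was the higher one (1.30) and turned to -0.047 with the median over probe sets. G protein-coupled receptors gave 2 lower and 1 higher of 9: P2RY2 and GPRC5A (-1.12, but -0.85 as a mean over probe sets) against LPAR1 (1.17, but -0.045 with the median over probe sets). MMP1, the interstitial collagenase, had 10.32 in control, 8.85 in siRNA and 3.49 in vector cells. Its difference from control was -1.48, and the vector array lay far below both. Among collagens and matrix glycoproteins 2 of 17 were higher and none lower (0 higher with the mean over probe sets), and among matrix metalloproteinases and ADAMs MMP1 was the lower gene and ADAM9 the higher one (1.38, but 0.97 as a mean over probe sets).

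A smaller set of genes had the siRNA array apart from both others. In 55 of 10917 genes (0.504%) the siRNA signal was at least 2-fold above both control and vector, and in 16 (0.147%) at least 2-fold below both. The 2 comparisons share the siRNA array, so an error of that array enters both. In some of the 55, such as SELENOP and SEMA3D, the vector array was also more than 2-fold above control. The filter takes the mean over the 3 arrays, so some of the 55 passed it only through their siRNA signal. BCHE, butyrylcholinesterase, had 7.28 in control, 9.94 in siRNA and 7.56 in vector cells, a difference of 2.65 from control, and all of its probe sets were past 2-fold. HPGD, which inactivates prostaglandins, had 5.87 in control, 8.02 in siRNA and 5.90 in vector cells, and its 8 probe sets were all higher than control, from 1.32 to 3.19. In both genes control and vector lay within 0.3 of each other. IGFBP5, which binds insulin-like growth factors, had 9.94 in control, 11.66 in siRNA and 9.31 in vector cells, and the guidance factor SEMA3C had 9.81 in control, 11.44 in siRNA and 9.98 in vector cells. FLRT3, a cell-surface adhesion protein, had 8.27 in control, 9.84 in siRNA and 7.27 in vector cells. The siRNA array was the highest in each. The 6 probe sets of IGFBP5 ran from -0.24 to 1.90.

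The scaffold AKAP12 had 5.35 in control, 7.24 in siRNA and 4.68 in vector cells, and its 2 probe sets gave 0.75 and 1.88. MCOLN3, a lysosomal calcium channel, had 3.92 in control, 7.09 in siRNA and 4.84 in vector cells and a difference of 3.16, or 1.64 as a mean over probe sets. PCDH18, a protocadherin, was 2.23 but 0.50 with the median over probe sets, and the phosphatase subunit PPP2R2B was 2.20 but 1.15 as a mean. In MCOLN3 and PPP2R2B control and vector signals were under the filter level of 5.28, so both passed only through the siRNA array. COL6A1 (1.5) and COL12A1 (1.83) turned to -0.33 and -0.27 with the median over probe sets. Both collagens thus depended on the choice of probe set.

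Of the 16 genes low on the siRNA array alone, CEL had the widest gap. UCA1, a long non-coding RNA, had 7.14 in control, 5.78 in siRNA and 10.58 in vector cells, so that the order ran from siRNA through control to vector. MALL, a membrane protein of lipid rafts, had 8.87 in control, 7.51 in siRNA and 9.42 in vector cells, and NRN1, neuritin, had 9.28 in control, 7.96 in siRNA and 9.69 in vector cells. FBXO32, a ubiquitin ligase subunit also called atrogin-1, had 6.39 in control, 5.17 in siRNA and 6.34 in vector cells, and the secreted protease KLK10 had 9.08 in control, 7.95 in siRNA and 9.08 in vector cells. The differences of FBXO32 and KLK10 from control, -1.22 and -1.13, were -0.93 and -0.99 after cyclic loess. Values of the control and vector arrays agreed within 0.1 in both.

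**Figure D4:**
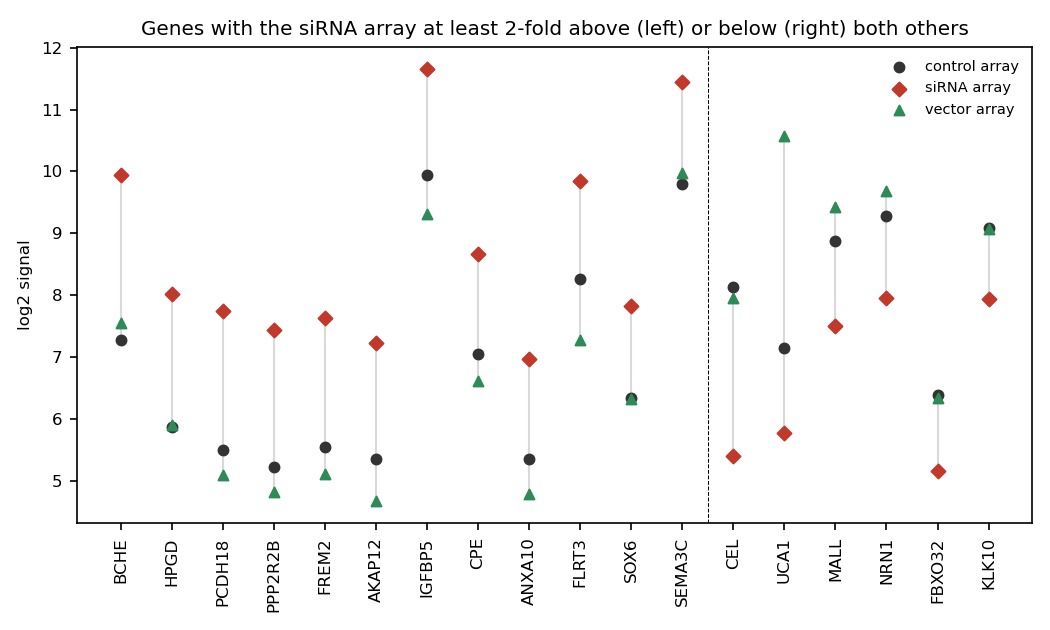
Log2 signals (y axis) on the control, siRNA and vector arrays, 1 point per array, for genes (x axis) with the siRNA array at least 2-fold above (left) or below (right) both others. BCHE stands at 9.94 in siRNA cells against 7.28 and 7.56, and CEL at 5.40 against 8.13 and 7.96.

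Promoter windows from 250 bases before to 50 after the annotated start in RefSeq (GRCh38.p14, the first listed for a symbol) were found for 9065 of the 10917 genes. The median GC content was 65.3% over these, 64.3% in 1387 higher genes and 66.3% in 168 lower genes. It was 61.0% in 45 of the 55 genes with siRNA at least 2-fold above both other arrays. Windows under 50% GC made up 7.46% of all genes, 11% of higher genes and 26.7% of those 45. In 5 bins of GC content, from lowest to highest, 18.9, 14.6, 15.9, 15.2 and 11.8% of genes were at least 2-fold higher. Higher genes were thus most frequent in the bin of lowest GC, by a modest margin.

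In these windows 10 motifs were searched on both strands. GGGCGG (GC box) was in 71.1% of all windows, 68.9% of higher genes, 74.4% of lower genes and 51.1% of the 45. The CCAAT box was in 37.1, 36.8, 39.3 and 26.7%, and the ETS motif CCGGAAG in 19.3, 21.1, 25 and 4.44%, in the same order. ACGTG (the core of the hypoxia response element) was in 26.8, 27.6, 33.3 and 24.4%, and CACGTG (E-box), which contains ACGTG, in 10.2, 10.0, 15.5 and 8.89%. TATAAA was in 5.80, 6.27, 8.93 and 11.1%, and TGANTCA (AP-1) in 4.46, 4.40, 5.95 and 8.89%. The NRF1 motif was in 2.31% of all windows and 2.60% of higher genes, the CRE motif TGACGTCA in 3.38 and 3.32%, and an ISRE-like motif in 7 windows in all. Genes at least 2-fold higher were near the background for each motif. Among 358 genes at least 4-fold higher, CCAAT was in 43.3% and the ETS motif in 25.7%, both above the shares over all genes, with no test. The 45 genes with siRNA above both other arrays held GC boxes and ETS motifs in smaller shares, in windows of lower GC content.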

How the data were processed

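Biotin-labelled RNA of 3 KYSE180 samples was measured on a gene expression array with 49293 probe sets. The authors deposited log2 values summarised with RMA, per the submitters' processing notes. Which version and settings of RMA were used is not given in the sources used here, and the log2 scale was read from RMA and the range of the values. Probe sets were named through the platform annotation: 44988 had 1 symbol, 1832 several (not named) and 2473 none listed. Differences, counts and alternatives, quantile normalization among them, were computed with Python 3.11.15 and pandas 2.3.3. Cyclic loess (span 0.4, 3 cycles) was computed with limma 3.58.1 in R 4.3.3. The counting was checked on simulated data. No test was possible with 1 array a group, and the number of arrays limits the precision. Named were the 20 largest differences each way, the 15 with the best agreement of probe sets, the 15 with the siRNA array farthest apart, members of 65 gene lists past 2-fold or else the 2 most different, and a few fixed genes. Members under 2-fold named beside these, and genes further down the siRNA-apart lists, were chosen after their values were seen. The genes and lists were chosen with earlier results of these data known, so their counts are descriptions. Alternatives were a fold of 1.5 or 3, no filter or one at the 75th percentile (7.44), the mean or median over probe sets, 3 other scalings, and leaving out probe sets marked as able to cross-hybridize. The restriction to probe sets above the filter was chosen after seeing the data. Protein length was not analysed here.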

Additional observations from a re-analysis of the deposited data

How the results depend on the processing

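At 1.5-fold 2492 genes were higher and 1964 lower, at 3-fold 791 and 5. A filter at the 75th percentile gave 1016 higher genes. With the mean over probe sets 1137 genes were higher, of which 1040 were among the 1623 reported. With the median over probe sets 1218 were higher, of which 1023 were among the 1623. Lower genes numbered 131 with the mean over probe sets, 408 after quantile normalization, 66 after cyclic loess and 72 after centring. The genes with siRNA above both other arrays numbered 211 at 1.5-fold, 11 at 3-fold and 88 without a filter. They numbered 15 with the filter at the 75th percentile, 25 with the mean and 26 with the median over probe sets. Those with siRNA below both numbered 132 at 1.5-fold, 1 at 3-fold and 7 with the 75th percentile. They numbered 9 with the mean, 10 with the median and 6 after cyclic loess. Of 389 named genes past 2-fold, 93 no longer were with the mean, 94 with the median, 37 without cross-hybridizing probe sets, 27 after quantile normalization, 20 after cyclic loess and 17 after centring. Among genes named by rule, the direction turned with the median over probe sets in BNIP3L (-0.047), CEP290 (-0.25), COL12A1 (-0.27), COL6A1 (-0.33), DCP2 (-0.31), IFT81 (-0.32), INSIG1 (-0.17), LPAR1 (-0.045), MDM2 (-0.074), TEAD1 (-0.31), TGFBR1 (-0.40), USP37 (-0.18), ZNF367 (-0.20), ZNF529 (-0.027), ZNF614 (-0.14) and ZNF765 (-0.47). It turned without cross-hybridizing probe sets in ATRX (-0.40), BNIP3L (-0.090), CLDN12 (-0.37), COL6A1 (-0.31), INSIG1 (-0.17), NUP58 (-0.0032), TEAD1 (-0.31) and TGFBR1 (-0.40), and with the mean in COL6A1 (-0.040). The sign of a group's median changed with the scaling for the Wnt, YAP, lysosome, MCM, p53, metalloproteinase, histone demethylase, cornified envelope, HOX, ribosomal, EGF receptor, PRC2, RNA interference, squamous factor and tRNA modification groups. With another choice of probe sets or filter it also changed for the coat and tethering, tight junction, intraflagellar transport, helicase, fatty acid, collagen, desmosome, sensor, tubulin and decay groups. The cause was not tested. No paired analysis was possible because each group has 1 array, and no array could be left out.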
